A study of Mus musculus with 54 samples.

Results

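The Period genes *Per1*, *Per2* and *Per3* were taken as the rows of the deposited read count table whose Ensembl identifiers carry these symbols, which gave 3 genes of 30031 in the table, all 3 of them among the 18941 genes tested. Their messenger RNA was measured in the suprachiasmatic nucleus (SCN), the hypothalamic pacemaker of the daily clock, of wild-type C3H/HeH male mice 10 to 12 weeks old. The animals were kept in 12 hr of light and 12 hr of darkness and brains were taken at zeitgeber times (ZT, hours after lights on) 2, 6, 10, 14, 18 and 22. The SCN was cut from Nissl-stained sections by laser capture, the tissue of 5 mice was pooled into each replicate, and 3 replicates (A, B and C) were made per timepoint, which gave 18 libraries sequenced on 3 lanes each. All groups share strain, sex and lighting and differ in the hour of collection, and since mice were kept on a light/dark cycle the data do not separate a clock-driven from a light-driven rhythm.

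Period proteins form the negative arm of the mammalian clock. The factors CLOCK and BMAL1 (encoded by *Arntl*) activate Period and Cryptochrome genes through E-box elements, and PER and CRY proteins accumulate, are phosphorylated by casein kinase 1 and then repress that activation. In the SCN *Per1* and *Per2* are also known to respond to light through cyclic AMP response elements and the factor CREB, whereas *Per3* is held to be dispensable for the core loop.

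Levels are given as CPM, the reads of a gene scaled to a common total of reads counted on genes, after TMM scaling (a correction for library composition), and time was tested with edgeR's quasi-likelihood F-test over all 18941 genes, with q the Benjamini–Hochberg adjusted p. Totals ranged from 15412981 to 35820945 reads counted on genes per library, and a single library held between 185 and 2154 reads of *Per1*, 190 and 4065 of *Per2* and 352 and 2654 of *Per3*, so reads were not scarce in any library. All 8 markers of SCN neurons were found in every library, while of the 7 markers of neighbouring hypothalamic neurons *Otp* was at 0 in 15 libraries, *Sim1* in 9, *Hcrt* in 6, *Crh* in 3, *Pmch* in 2 and *Trh* (5.87 to 69.0 CPM) and *Oxt* (0.0610 to 26.5 CPM) in none. The timepoints were grouped into 3 library clusters after the study's own plot of the libraries, not by a clustering of their correlations. The first holds ZT2 and ZT22, the next ZT6 together with ZT10 and the last ZT14 together with ZT18. Over the 15759 genes averaging 10 counts or more, the median Pearson correlation of log2 CPM was 0.944 between libraries of a timepoint. It was 0.932 between the timepoints of a cluster (0.859 to 0.975) and 0.868 between clusters (0.772 to 0.913), and these ranges overlap. The study held batch effects to be minimal, since most key clock genes peaked and troughed when expected, and reported that qPCR largely matched the sequencing. The study's own plot of the libraries names sequencing batch beside timepoint, so a step from one cluster to the next cannot be told apart from any batch that follows the clusters, and the steps ZT6 to ZT10, ZT14 to ZT18 and ZT22 to ZT2 are the ones that stay inside a cluster.

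All 3 Period genes were highest at ZT6, in the middle of the light phase, and lowest at ZT22, late in the dark. The mean fell between these timepoints by a factor of 7.79 for *Per1*, 11.4 for *Per2* and 4.61 for *Per3*. Each gene changed with time, with q = 1.37e-06 for *Per1*, 3.03e-07 for *Per2* and 0.00116 for *Per3*, but 44.0% of all tested genes also did. The rank of the p among the 18941 genes was 323 for *Per2*, 514 for *Per1* and 3665 for *Per3*. In bulk tissue fewer cells of a type and less RNA per cell cannot be told apart in these levels.

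**Figure D1:**
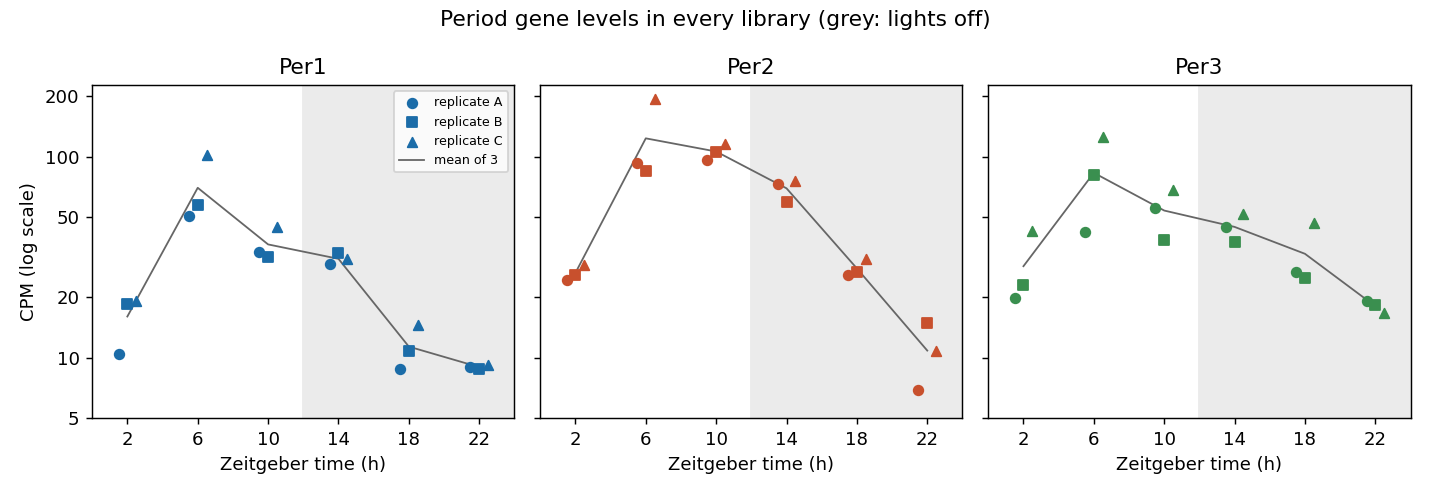
CPM of *Per1*, *Per2* and *Per3* on a log scale against zeitgeber time in hours, with a symbol for each of the 18 libraries, a line through the mean of 3 replicates and grey for lights off. The mean at ZT6 stands highest for every gene, and replicate C at ZT6 (102 CPM for *Per1*, 192 for *Per2*, 126 for *Per3*) stands above the other libraries.

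*Per1* (ENSMUSG00000020893) lies on the plus strand of chromosome 11 at chr11:69095217-69109960 of GRCm38, with 5631 bases of annotated exons. RefSeq promoter windows, each from 250 bases before to 50 bases after an annotated start, were at hand for 2 of the 3 genes, with 2 windows for *Per1* and 1 for *Per3*. They were searched on both strands for the E-box CACGTG, the related CACGTT, the CRE TGACGTCA and the D-box forms TTATGTAA and TTACGTAA, none of which overlap in these windows. The window of the lower of the *Per1* starts, chr11:69098699-69098998 on the plus strand of GRCm38.p6, is shown because it holds an E-box, the kind of element that the clock's activators are known to bind, in capitals, at position -166 from the start.

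Per1 promoter window: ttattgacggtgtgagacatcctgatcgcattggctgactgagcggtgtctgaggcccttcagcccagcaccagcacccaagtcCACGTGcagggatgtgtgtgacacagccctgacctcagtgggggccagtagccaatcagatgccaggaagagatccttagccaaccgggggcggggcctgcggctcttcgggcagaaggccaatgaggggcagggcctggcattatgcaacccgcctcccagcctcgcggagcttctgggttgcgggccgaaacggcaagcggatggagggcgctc

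The E-box is in 7.15% of all 32851 RefSeq windows, so its presence here is a description of the sequence. The second *Per1* window, chr11:69099902-69100201, holds none of the 5 motifs in these letters, which says nothing of sites outside it. CACGTT is in 4.68% of windows and TGACGTCA in 1.79%.

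At ZT2 *Per1* stood at 10.5, 18.5 and 19.1 CPM in replicates A, B and C, and at ZT6 at 50.6, 57.4 and 102 CPM. It was 33.5, 31.6 and 44.6 CPM at ZT10 and 29.1, 33.0 and 31.0 CPM at ZT14. At ZT18 it had fallen to 8.80, 10.8 and 14.5 CPM, and at ZT22 it was 8.99, 8.78 and 9.17 CPM. The ZT6 libraries lay above those of every other timepoint without overlap, the ZT10 and ZT14 libraries overlapped each other, and so did those of ZT2 with ZT18 and of ZT18 with ZT22. The share of all tested genes with a timepoint set apart in this way was not counted. The means were 69.97 ± 27.9 CPM (SD, n = 3) at ZT6, 36.6 ± 7.04 at ZT10, 31.0 ± 1.95 at ZT14, 16.03 ± 4.83 at ZT2, 11.4 ± 2.87 at ZT18 and 8.98 ± 0.197 at ZT22. Between neighbours in this order the difference passed the test only from ZT14 to ZT2, with a log2 of 0.95 (SE 0.29, q = 0.0216), where 15.0% of tested genes were higher at ZT14. That pair lies in different library clusters, and its call was lost with upper-quartile normalization (q = 0.0590), with no filter beyond 1 read (q = 0.0549) and without ZT2 replicate A (log2 0.72, q = 0.109), ZT2 replicate C (q = 0.0510) or ZT14 replicate B (q = 0.0628).

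*Per2* (ENSMUSG00000055866) lies on the minus strand at chr1:91415982-91459324, with 5856 bases of exons. It stood at 24.4, 25.8 and 29.0 CPM at ZT2, at 92.6, 84.8 and 192 CPM at ZT6 and at 96.7, 105 and 116 CPM at ZT10. At ZT14 it was 73.0, 59.6 and 76.0 CPM, at ZT18 25.8, 26.7 and 30.9 CPM and at ZT22 6.88, 14.9 and 10.8 CPM. The ZT6 and ZT10 libraries overlapped, and 2 of the 3 at ZT6 lay below all of those at ZT10. The means were 123 ± 59.97 CPM at ZT6, 106 ± 9.74 at ZT10, then 69.6 ± 8.75 at ZT14, 27.8 ± 2.71 at ZT18, 26.4 ± 2.34 at ZT2 and 10.9 ± 4.02 at ZT22 (SD, n = 3). In this order only ZT14 and ZT18 differed past the test, as given with the steps, while ZT18 and ZT2, which lie 8 hr apart on either side of the trough, differed by a log2 of 0.07 (SE 0.28, q = 0.888).

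*Per3* (ENSMUSG00000028957) lies on the minus strand at chr4:151003652-151044665, with 9608 bases of exons. Its window, chr4:151044616-151044915 on the minus strand of GRCm38.p6, is shown because it holds a pair of D-boxes, the element bound by the PAR bZIP activators such as DBP and by the repressor NFIL3, in capitals, at positions -205 and -158.

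Per3 promoter window: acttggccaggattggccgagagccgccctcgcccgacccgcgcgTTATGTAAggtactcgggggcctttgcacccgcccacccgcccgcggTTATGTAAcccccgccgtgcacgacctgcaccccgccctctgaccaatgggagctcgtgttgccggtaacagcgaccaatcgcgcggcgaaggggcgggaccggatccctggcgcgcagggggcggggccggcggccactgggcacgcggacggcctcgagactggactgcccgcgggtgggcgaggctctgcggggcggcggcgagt

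TTATGTAA is in 0.938% of the 32851 windows and TTACGTAA in 0.119%, and 7 windows (0.0213%) hold TTATGTAA at least 2 times. At ZT2 *Per3* stood at 19.9, 22.9 and 42.7 CPM, at ZT6 at 42.2, 81.4 and 126 CPM and at ZT10 at 55.5, 38.4 and 67.9 CPM. At ZT14 it was 44.5, 37.7 and 51.9 CPM, at ZT18 26.7, 24.9 and 46.9 CPM and at ZT22 19.1, 18.3 and 16.7 CPM. The ranges of each pair of timepoints next to each other in level overlapped except those of ZT2 and ZT22. The means were 83.1 ± 41.7 CPM at ZT6, 53.9 ± 14.8 at ZT10, then 44.7 ± 7.07 at ZT14, 32.9 ± 12.2 at ZT18, 28.5 ± 12.4 at ZT2 and 18.0 ± 1.25 at ZT22 (SD, n = 3). No neighbours in this order differed past the test, and the change of *Per3* was called between timepoints farther apart, as between ZT6 and ZT22 (log2 2.20, SE 0.38, q = 2.22e-04).

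From ZT6 to ZT22 the log2 difference was 2.96 (SE 0.31, q = 1.37e-06) for *Per1* and 3.51 (SE 0.31, q = 2.63e-07) for *Per2*, in a comparison in which 16.5% of tested genes were higher at ZT6. Per kilobase of exon, the mean of the 6 timepoints was 10.4 CPM per kb for *Per2*, 5.15 for *Per1* and 4.53 for *Per3*. The length is that of all annotated exons of a gene together, and the transcripts present were not measured. Comparisons between genes on this scale are therefore approximate. At ZT6 the levels were 21.1 CPM per kb for *Per2*, 12.4 for *Per1* and 8.64 for *Per3*. At ZT22 they had come down to 1.85, 1.59 and 1.88 CPM per kb for *Per2*, *Per1* and *Per3*. On this scale the genes thus stood close together at the trough and apart at the peak.

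The means of all 3 genes were already higher at ZT2 than at ZT22, a step that did not pass the main test. The called rise of all 3 genes fell in the step from ZT2 to ZT6, the early light phase. The log2 difference was 2.12 (SE 0.30, q = 2.76e-05) for *Per1*, 2.22 (SE 0.29, q = 1.72e-05) for *Per2* and 1.54 (SE 0.37, q = 0.00332) for *Per3*. At this step 17.5% of tested genes rose, and it crosses from one library cluster to the next. Without ZT6 replicate C the log2 differences were 1.75, 1.75 and 1.11, with q = 1.22e-04, 3.92e-05 and 0.0260.

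The called falls lay at the steps after ZT14. From ZT14 to ZT18, inside a cluster, *Per1* fell by 1.45 (SE 0.29, q = 0.0324) and *Per2* fell by 1.32 (SE 0.29, q = 0.0470) on the log2 scale, at a step where 0.412% of tested genes fell. Neither gene's libraries overlapped between these timepoints. *Per1* was at 29.1 CPM or more at ZT14 and at 14.5 or less at ZT18. *Per2* was at 59.6 or more at ZT14 and at 30.9 or less at ZT18. The share of all tested genes without overlap at this step was not counted. *Per3* had a log2 difference of -0.45 (SE 0.36, q = 0.665) and overlapping libraries. Both calls stand close to the threshold: with single libraries left out in turn q ranged from 0.0166 to 0.127 for *Per1*, past the threshold in 10 of 18 fits, and from 0.0163 to 0.184 for *Per2*, in 6 of 18, and with only the libraries of these timepoints in the fit q was 0.136 and 0.0939. The log2 differences themselves stayed between -1.66 and -1.30 for *Per1* and between -1.42 and -1.25 for *Per2* in the fits without a library.

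From ZT18 to ZT22 *Per2* fell further, by 1.36 (SE 0.29, q = 0.00300) on the log2 scale, where 11.9% of tested genes fell, and this call held with every library left out in turn. *Per1* had a log2 difference of -0.33 (SE 0.29, q = 0.473) and *Per3* one of -0.86 (SE 0.36, q = 0.112) at this step, which crosses clusters. The mean of *Per1* was 11.4 ± 2.87 CPM at ZT18 and 8.98 ± 0.197 at ZT22, and that of *Per2* 27.8 ± 2.71 and 10.9 ± 4.02 CPM.

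The other steps passed the test for none of the 3 genes. The adjustment was made over all tested genes within each step, so q cannot be compared between steps. From ZT6 to ZT10 the log2 difference was -0.94 (SE 0.29, q = 0.332) for *Per1*, -0.22 (SE 0.28, q = 0.816) for *Per2* and -0.62 (SE 0.36, q = 0.540) for *Per3*, and 0.0475% of tested genes passed in either direction. The direction for *Per2* turned without ZT6 replicate C, to 0.26 (q = 0.880). From ZT10 to ZT14 the values were -0.24 (SE 0.28, q = 0.628), -0.61 (SE 0.28, q = 0.155) and -0.27 (SE 0.36, q = 0.670) for *Per1*, *Per2* and *Per3*, with 16.8% of genes passing. From ZT22 to ZT2 they were 0.84 (SE 0.29, q = 1), 1.28 (SE 0.29, q = 0.309) and 0.66 (SE 0.36, q = 1), with 0.0317% passing. For *Per2* the edgeR p before adjustment was 3.43e-04 from ZT22 to ZT2. It was 2.00e-04 from ZT18 to ZT22, where q was 0.00300. For each Period gene the ZT2 libraries lay above those of ZT22 without overlap. How many of all tested genes did so was not counted.

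**Figure D2:**
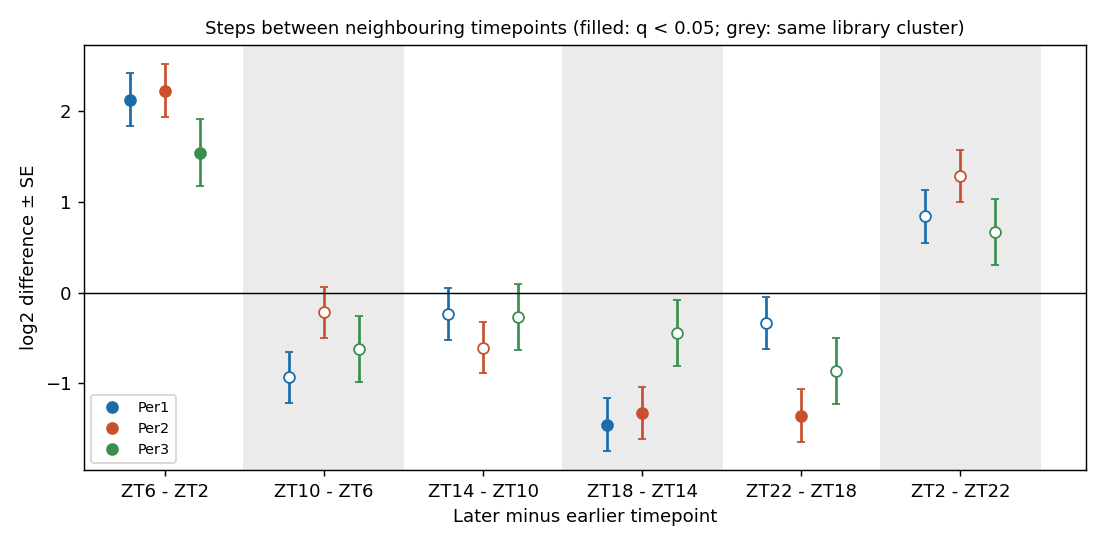
Log2 difference of each timepoint from the one before it, with bars of ± SE, for *Per1*, *Per2* and *Per3*; filled symbols passed the test (q < 0.05) and grey bands mark steps inside a library cluster. The rise from ZT2 to ZT6 is filled for all 3 genes, the fall from ZT14 to ZT18 for *Per1* and *Per2*, and the fall from ZT18 to ZT22 for *Per2*.

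A cosine of 24 hr fitted to log2 CPM (prior count 2) over the 18 libraries placed the acrophase, the time of the fitted peak, at ZT 8.68 hr (95% interval 7.71 to 9.64) for *Per1*, 9.57 hr (8.87 to 10.28) for *Per2* and 9.30 hr (7.73 to 10.87) for *Per3*. The intervals overlap and cover the spread of the libraries about the cosine only. The amplitude on the log2 scale was 1.34 ± 0.16 (SE) for *Per1*, 1.70 ± 0.15 for *Per2* and 0.86 ± 0.17 for *Per3*, a fitted peak over trough of 6.43-, 10.5- and 3.28-fold. Among the same 15759 genes averaging 10 counts or more, these amplitudes ranked 1554, 701 and 4451. The fitted peak lies later than the timepoint with the highest mean for every gene. JTK_CYCLE, an exact rank test of rhythm, placed the peak at ZT10 for each gene, with p = 4.00e-04 for *Per1*, 1.22e-06 for *Per2* and 0.00224 for *Per3*. All 3 were thus called cycling (time test and JTK_CYCLE both passed), as were 29.9% of tested genes, and 22.5% of the cycling genes had their peak at ZT10.

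**Figure D3:**
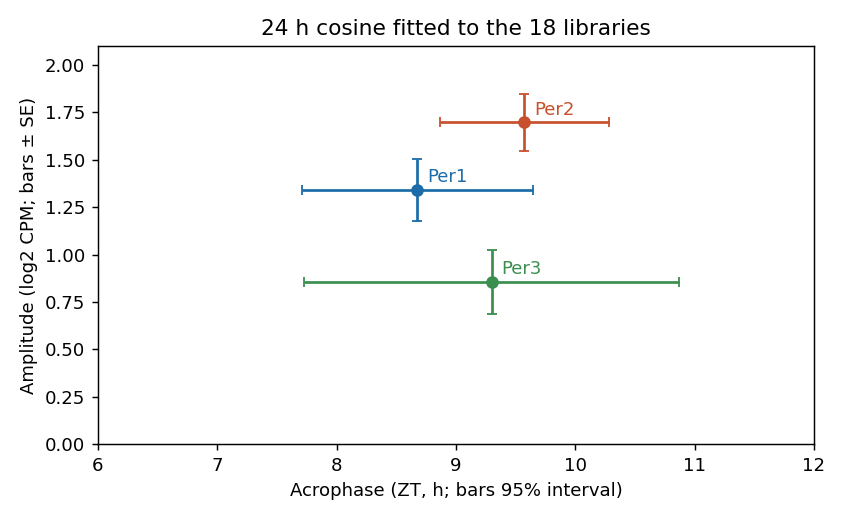
Acrophase in hours (bars, 95% interval) against amplitude on the log2 CPM scale (bars, ± SE) of the 24 hr cosine fitted to the 18 libraries for each Period gene. The acrophases lie between 8.68 and 9.57 hr with overlapping intervals, and the amplitudes are ordered *Per2* (1.70), *Per1* (1.34) and *Per3* (0.86).

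The shape of the profile departed from that cosine for *Per1* (q = 0.0241) and *Per2* (q = 0.0445), not past the test for *Per3* (q = 0.136), where 20.3% of tested genes departed. For *Per1* the called rise lay in a single 4 hr step, to a mean of 69.97 CPM at ZT6. The mean was lower at ZT10, at 36.6 CPM (log2 -0.94, q = 0.332, not called), and 31.0 CPM at ZT14. The calls of departure also stand close to the threshold. With single libraries left out, q lay between 0.0141 and 0.0802 for *Per1*, which passed in 15 of 18 fits. For *Per2* q lay between 0.0206 and 0.0955 and passed in 3 of 18 fits. The *Per1* call was lost without ZT6 replicate C (0.0802), without ZT10 replicate A (0.0742) and without ZT10 replicate B (0.0796), and *Per3* passed without ZT6 replicate A (q = 0.0320).

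The balance between the 3 genes changed over the day. The ratio of reads in the same library, which no scaling of libraries can move, was tested over time by permuting the timepoint labels (100000 permutations, F statistic of the log2 ratio), with p = 0.00324 for *Per2* over *Per1*, 0.00233 for *Per3* over *Per1* and 0.00204 for *Per2* over *Per3* (adjusted over the 3 ratios, 0.00324 for each). Per kilobase of exon, *Per2* over *Per1* was 1.34 to 2.25 at ZT2, 1.42 to 1.81 at ZT6 and 2.50 to 3.20 at ZT10 across replicates. It was 1.74 to 2.41 at ZT14, 2.05 to 2.82 at ZT18 and 0.737 to 1.63 at ZT22. The ZT10 libraries held more *Per2* for their *Per1* than any library at ZT2, ZT6, ZT14 or ZT22, whereas at ZT6 the ratio was close to that at ZT2 although both genes had risen in between.

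*Per3* over *Per1*, per kilobase, was lowest at ZT6, at 0.489 to 0.831, and highest at ZT18, at 1.35 to 1.90 across replicates. The geometric mean started at 1.02 (ZT2), dropped to 0.664 (ZT6), stood at 0.851 (ZT10) and 0.839 (ZT14), reached 1.66 (ZT18) and ended at 1.17 (ZT22). Inside the cluster of ZT14 and ZT18 the ratio thus went from at most 0.982 to at least 1.35, without overlap. How often ratios of other gene pairs did so was not counted. The geometric mean of *Per2* over *Per3*, per kilobase, climbed from 1.60 (ZT2) and 2.49 (ZT6) to 3.30 (ZT10). It then came down through 2.56 (ZT14) and 1.44 (ZT18) to 0.942 (ZT22). At ZT22 this ratio was 0.590 to 1.34 across replicates, so *Per3* and *Per2* stood close on this scale, which depends on the exon lengths used.

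**Figure D4:**
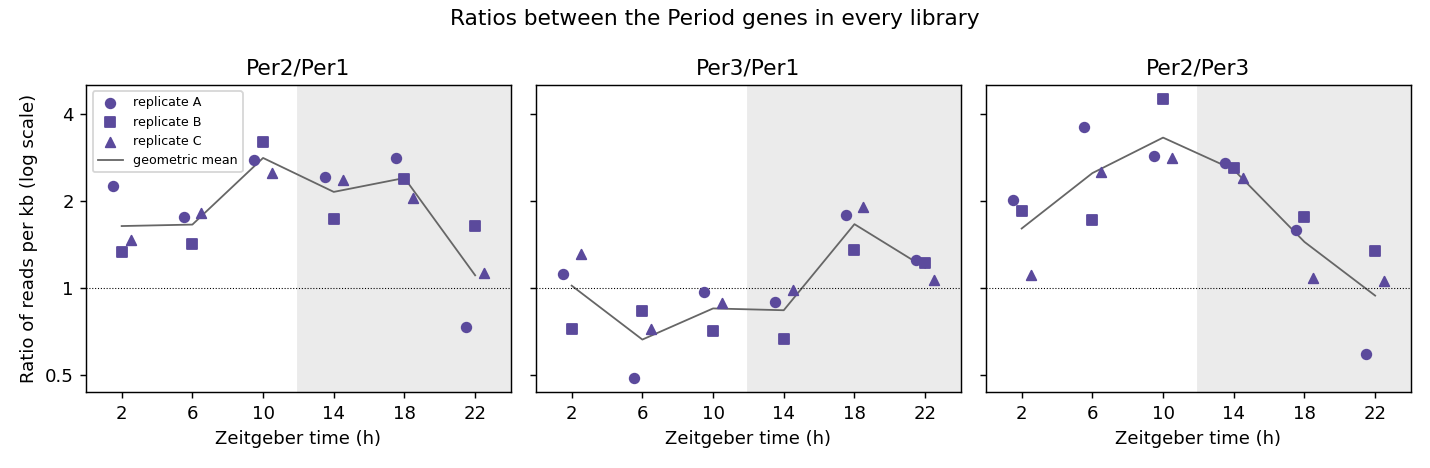
Ratio of reads per kilobase of exon between pairs of Period genes, on a log scale, in each of the 18 libraries against zeitgeber time in hours, with a line through the geometric mean of 3 replicates and a dotted line at equal levels. *Per2* over *Per1* is highest at ZT10 (2.81), *Per3* over *Per1* at ZT18 (1.66) and *Per2* over *Per3* at ZT10 (3.30).

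Replicates differed most at ZT6. The coefficient of variation there was 39.9% for *Per1*, 48.6% for *Per2* and 50.2% for *Per3*, while the 500 tested genes nearest to each in level had medians of 26.8%, 21.8% and 24.1%. At the steadiest timepoint it was 2.20% for *Per1*, 8.85% for *Per2* and 6.96% for *Per3*. Replicate C at ZT6 held 1.89-, 2.17- and 2.03-fold the mean of replicates A and B for *Per1*, *Per2* and *Per3*, where the median of 15759 genes was 0.897-fold, and 12.7%, 9.73% and 11.03% of genes had a higher value. Replicate C was the highest of its timepoint for each Period gene at 5 of the 6 timepoints, the exceptions being ZT14 for *Per1* and ZT22 for *Per2* and *Per3*. How the replicate letters were assigned is not given in the sources used here, and over all genes libraries of the same letter did not deviate together.

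At ZT6 the ratios varied less than the levels, but this did not hold at every timepoint. The SD of log2 CPM at ZT6 was 0.54 for *Per1* and 0.65 for *Per2*, and that of their log2 ratio was 0.19. At every other timepoint this ratio had a larger SD than *Per2* itself, as at ZT2 (0.40 against 0.13) and ZT22 (0.57 against 0.56). For *Per3* the SD at ZT6 was 0.79, and its log2 ratio varied by 0.40 against *Per1* and by 0.54 against *Per2*. Pooled over the 6 timepoints the SD within a timepoint was 0.35 for *Per1*, 0.37 for *Per2* and 0.49 for *Per3*. The last is the gene with the fewest called steps. The pooled SD of the log2 ratio was 0.34 for *Per2* over *Per1*, 0.31 for *Per3* over *Per1* and 0.44 for *Per2* over *Per3*.

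Markers of cell types moved with the timepoints too. The summed CPM of the 8 SCN neuron markers was 4572 to 5281 at ZT6 and 4054 to 4796 at ZT10, and between 1271 (ZT14) and 3197 (ZT2) in the libraries of the other timepoints. Part of this list is itself rhythmic in the SCN, as *Avp*, whose level spanned 3.12 to 478 CPM. Oligodendrocyte markers (6 of 6 found) summed to 1266 to 3030 CPM at ZT6, 1619 to 2002 at ZT10, and 4715 to 6070 over ZT14 and ZT18, and astrocyte markers (5 of 5) to 1268 to 1757 CPM at ZT6 and ZT10 and to 1904 to 3923 elsewhere. At ZT6 replicate C had the highest SCN sum, 5281 CPM, against 4572 and 5038 in A and B, and the lowest oligodendrocyte sum, 1266 against 3030 and 1432. The higher SCN sum does not hold over the list. *Avp*, *Grp*, *Nms*, *Six6* and *Six3* were each at their lowest ZT6 level in replicate C, and *Vip*, *Lhx1* and *Rgs16* were not. *Vip*, the most abundant, stood at 3230 CPM in replicate C, against a lowest ZT6 level of 2340 CPM. From ZT6 to ZT22 the median SCN sum went from 5038 to 2170 CPM, and from ZT14 to ZT18, where *Per1* and *Per2* fell, it went from 1774 to 1956. The SCN sums were 1271 to 1821 CPM at ZT14 and 1862 to 2296 CPM at ZT18, also without overlap. At that same step the sum of the telencephalic excitatory neuron markers went from 87.3 to 195 CPM at ZT14 down to 24.3 to 60.04 at ZT18, that of microglia from 177 to 213 down to 138 to 164, and that of endothelial cells from 61.1 to 78.6 up to 84.6 to 112, each without overlap. Between the highest and the lowest timepoint of the Period genes, telencephalic markers (5 of 5 found) summed to 16.3 to 17.6 CPM at ZT6 and 56.4 to 217 at ZT22, and microglial markers (5 of 5) to 64.9 to 161 and 171 to 216, again without overlap. Over the 18 libraries endothelial markers (4 of 4) summed to 43.4 to 112 CPM and those of neighbouring hypothalamic neurons (7 of 7) to 9.12 to 79.1. The part of these marker levels in the Period gene differences was not tested.

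**Figure D5:**
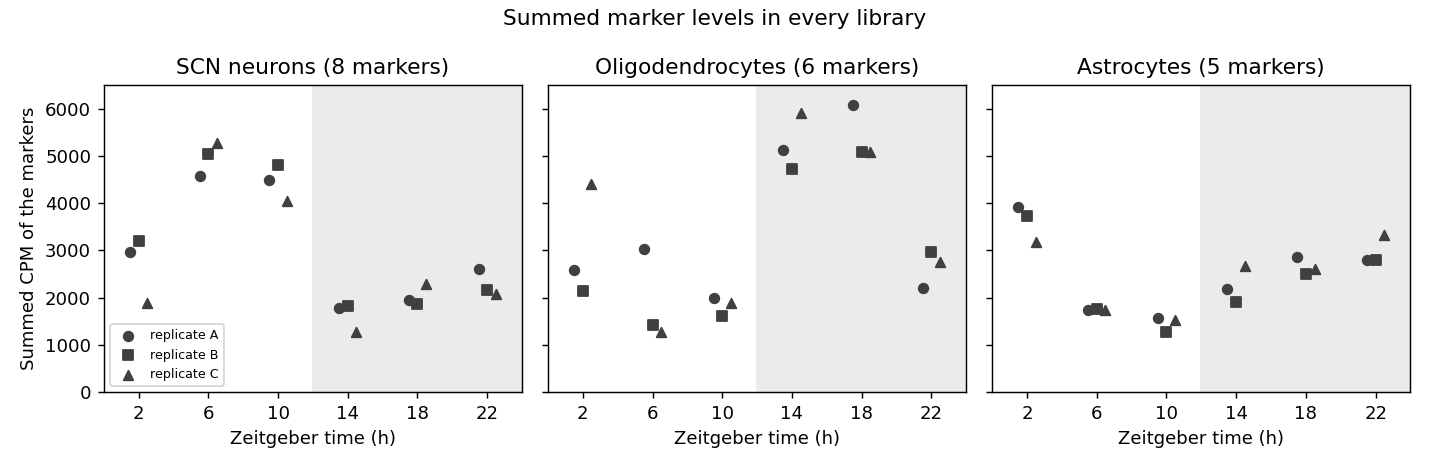
Summed CPM of the markers of SCN neurons (8 genes), oligodendrocytes (6) and astrocytes (5) in each of the 18 libraries against zeitgeber time in hours, with grey for lights off. SCN neuron markers sum highest at ZT6 and ZT10 (4054 to 5281 CPM), oligodendrocyte markers at ZT14 and ZT18 (4715 to 6070 CPM).

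The genes beside the Period genes differ in how far they share the profile. *Hes6*, a helix-loop-helix factor of neural differentiation, lies 1943 bases from the end of *Per2* on the same strand and had its highest mean at ZT6 (56.7 CPM) and its lowest at ZT22 (7.09 CPM), as *Per2* did (time test q = 2.62e-07). On the other side of *Per2*, *Traf3ip1*, a ciliary transport gene, stood at 26.9 CPM at ZT6 and was lowest at ZT18 with 7.69 CPM (q = 0.00831). Beside *Per1*, the synaptic vesicle gene *Vamp2* was highest at ZT10 (338 CPM) and lowest at ZT18 (194 CPM, q = 0.00124), and *9130213A22Rik* stayed at or under 1.02 CPM on average (q = 0.210).

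*Camta1*, a transcription factor gene far longer than *Per3*, spans *Per3* on the same strand and ranged from 199 CPM at ZT18 to 284 at ZT6 (q = 0.0503, and 0.00675 with upper-quartile normalization). Reads on bases that both genes use cannot be assigned to either by position. *Uts2* stayed at or under 1.51 CPM on average (q = 0.358) and *Vamp3* ranged from 42.7 CPM at ZT6 to 67.4 at ZT18 (q = 0.211), the reverse of the extreme of *Per3* at ZT6. The count of *Per3* also depends on which deposited table is read, as the ZT6 and ZT10 columns differ between the tables for most genes. The reads recovered from the normalized table were fewer than those of the count table by a log2 of -0.40 to -0.21 for *Per3* at ZT6 and ZT10, against -0.13 to -0.07 for *Per1* and -0.14 to -0.07 for *Per2*, and differed at no other timepoint by more than 1 read. With the recovered reads the time test gave q = 0.00136 for *Per3*.

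By Pearson correlation of log2 CPM over the 18 libraries, the 5 genes most like *Per1* were *Zfhx2* (r = 0.95), *Tenm3* (0.94), *Vgf* (0.92), *Per2* (0.92) and *Hlf* (0.91). Those most like *Per2* were *Col9a3* (0.93), the pseudogene *Rps15a-ps3* (0.92), *Per1* (0.92), *Cacna1g* (0.92) and *Ubl3* (0.91), and those most like *Per3* were *Per1*, *Hnrnpul1*, *Tor1aip1*, *Cacna1g* and *Map1lc3a* (each 0.90). *Per3* ranked 11th for *Per1* and 39th for *Per2*, with r = 0.90 and 0.87. Every one of these genes had its highest mean at ZT6 and its lowest at ZT22. *Vgf*, a secreted neuropeptide precursor, was at 200 CPM at ZT6 and only 22.7 CPM at ZT22, and *Cacna1g*, which encodes a T-type calcium channel, from 67.4 to 9.75 CPM. *Rps15a-ps3* stayed at or under 1.53 CPM on average and can share reads with its parent gene, so its value is uncertain. These correlations describe the libraries, which share cluster and depth, and carry no p.

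Other clock genes were read from lists of known Period partners and regulators. Of the 23 genes for partners and turnover of the Period proteins, 16 changed with time and 9 were called cycling, against 44.0% and 29.9% of all tested genes. Between ZT6 and ZT18, 5 were higher at ZT6 and 4 lower, where 8.74% of all tested genes were higher and 12.0% lower, and the median log2 difference was 0.14 against -0.18 over all tested genes. The higher genes were *Cry1*, *Csnk1e*, *Csnk1a1*, *Ppp1cc* and *Cbx3*, and the lower ones *Csnk1d*, *Ppp1ca*, *Sin3a* and *Mta2*. *Cry1*, the partner of PER in repression, peaked with the Period genes at ZT6 and ZT10, at 55.8 ± 19.4 and 56.7 ± 5.79 CPM, and was 24.5 ± 3.56 CPM at ZT22 (SD, n = 3, time test q = 0.00161). *Cry2* was instead highest at ZT14, at 128 ± 7.47 CPM, and 46.6 ± 7.86 CPM at ZT6 (q = 0.00162).

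Of the kinases that phosphorylate PER, *Csnk1e* had its highest mean at ZT6 (62.9 ± 22.2 CPM) and lowest at ZT18 (32.7 ± 6.91 CPM, q = 0.00718). *Csnk1d* ran the other way, from 52.3 ± 5.50 CPM at ZT6 to 121 ± 12.9 CPM at ZT14 (q = 0.0324), though q passed in only 11 of 18 fits with a single library left out and reached 0.0873 without ZT6 replicate C, and q was 0.102 when recovered reads replaced the counts. *Ppp1ca*, a phosphatase subunit counted among the lower genes, stood at 4.82 ± 1.97 CPM at ZT6 and 6.24 ± 1.90 at ZT10 and at 241 to 426 CPM on average at the other timepoints, a step that follows the library clusters.

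Of the 7 E-box activators and repressors, 5 changed with time (44.0% of all tested genes did) and 3 were called cycling (29.9%). Between ZT6 and ZT18, 2 were higher at ZT6 (*Bhlhe41* and *Ciart*) and 2 lower (*Arntl* and *Bhlhe40*). Of all tested genes 8.74% were higher and 12.0% lower. The median log2 difference, -0.63, was that of *Npas2*, which did not pass (q = 0.366). *Arntl* was lowest at ZT6, at 22.8 ± 1.32 CPM, and highest at ZT14, at 51.9 ± 17.9 CPM (q = 0.00725), so its lowest level fell at the timepoint where the Period genes were highest. Its partner *Clock* ranged from 39.7 ± 8.11 CPM at ZT10 to 73.7 ± 25.5 CPM at ZT2 (q = 0.0214, which became 0.0518 without ZT10 replicate A and 0.0580 without ZT10 replicate B). The E-box repressor *Bhlhe41* was highest at ZT6 with 663 ± 36.6 CPM and *Bhlhe40* lowest there with 34.1 ± 6.45 CPM, with q = 1.15e-06 and 7.40e-06. From ZT22 to ZT2, inside a cluster, *Bhlhe41* rose from 104 ± 26.1 to 390 ± 33.2 CPM (log2 1.91, q = 0.0161), at a step where no Period gene passed. This call was lost without ZT2 replicate B (q = 0.103) and without any of the ZT22 replicates A, B and C (q = 0.0729, 0.229 and 0.0624).

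Of the 4 D-box factors, 3 changed with time (44.0% of all tested genes did) and 2 were called cycling (29.9%). Those higher at ZT6 than at ZT18 numbered 2 (*Dbp* and *Hlf*), against 8.74% of all tested genes, and 0 were lower (12.0%). The median log2 difference was 0.60. *Dbp* stood at 105 ± 4.76 CPM at ZT6 and at 12.9 ± 2.93 CPM at ZT18 (q = 1.68e-07). *Hlf*, a related activator, was 268 ± 10.7 CPM at ZT6 and fell between ZT14 and ZT18, from 203 ± 17.5 to 123 ± 17.8 CPM (log2 -0.72, q = 0.0309), at the step where *Per1* and *Per2* fell. Its q ranged from 0.0212 to 0.159 with single libraries left out and passed in 13 of 18 fits, the calls lost being those without a library of ZT14 or without ZT18 replicate B or C. The *Hlf* call was also lost with no filter beyond 1 read (q = 0.0712). The D-box repressor *Nfil3* was 12.6 ± 1.00 CPM at ZT14 and 3.64 ± 1.36 CPM at ZT2 (q = 0.0639, and between 0.0131 and 0.142 with single libraries left out). Of the 5 RORE factors, 3 changed with time (44.0% of all tested genes did) and 3 were called cycling (29.9%). Of these 5, 2 were higher at ZT6 than at ZT18 (*Nr1d2* and *Rora*, against 8.74% of all tested genes) and 0 lower (12.0%). The median log2 difference, 0.43, was that of *Nr1d1*, which did not pass between these timepoints (q = 0.688). *Nr1d2* went from 145 ± 49.6 CPM at ZT6 to 35.8 ± 6.39 CPM at ZT14 (time test q = 1.65e-04). *Nr1d1*, at 360 ± 320 CPM at ZT2 and 108 ± 8.99 CPM at ZT10, did not pass the time test (q = 0.330).

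Of the 12 genes of the CRE pathway, 7 changed with time (44.0% of all tested genes did) and 6 were called cycling (29.9%), with 6 higher (8.74%) and 0 lower (12.0%) at ZT6 than at ZT18 and a median log2 difference of 0.51. The 6 higher genes were *Sik1*, *Sik3*, *Crem*, *Atf1*, *Crtc3* and *Prkaca*. *Creb1* itself lay between 33.3 ± 13.4 CPM at ZT18 and 54.2 ± 9.75 CPM at ZT2 (q = 0.285). The coactivator *Crtc1* stood at 5.54 ± 3.33 and 5.002 ± 1.83 CPM at ZT2 and ZT22 and at 61.1 to 148 CPM on average elsewhere (q = 4.52e-08), with a step at the border of that cluster. *Sik1*, a kinase that inactivates CRTC1, was 77.9 ± 30.5 CPM at ZT6 and 21.8 ± 5.03 CPM at ZT10 (log2 -1.83, q = 0.0228), and rose from 9.89 ± 1.49 CPM at ZT22 to 33.7 ± 6.03 at ZT2 (log2 1.77, q = 0.0394), both inside clusters. With single libraries left out these calls passed in 13 of 18 and 8 of 18 fits, with q up to 0.167 without ZT10 replicate B and up to 0.338 without ZT22 replicate B, and the log2 differences stayed between -2.04 and -1.48 and between 1.61 and 1.87. The coactivator *Crebbp* fell from 103 ± 15.5 CPM at ZT14 to 54.6 ± 11.5 at ZT18 (log2 -0.91, q = 0.0460), a call that passed in 8 of 18 such fits (q up to 0.203, without ZT14 replicate A).

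Of the 9 immediate early genes, 8 changed with time (44.0% of all tested genes did) and 6 were called cycling (29.9%). At ZT6 against ZT18, 3 were higher (*Fos*, *Junb* and *Dusp1*), where 8.74% of all tested genes were higher. Another 2 were lower (*Arc* and *Egr3*, the latter with no reads at ZT6), where 12.0% were lower. The median log2 difference, 1.25, was that of *Fosb*, at 1.70 ± 2.91 CPM at ZT6 and not called (q = 0.576). *Fos* was highest at ZT6, at 56.7 ± 7.27 CPM, and lowest at ZT18, at 10.3 ± 5.77 CPM (q = 0.0113). *Egr1* was highest at ZT14, 2 hr after lights off, at 78.0 ± 17.5 CPM, and fell to 18.96 ± 5.05 CPM at ZT18 (log2 -2.04, q = 0.0242), past the threshold in 12 of 18 fits without a single library, with q up to 0.121 without ZT14 replicate A. At ZT6, the timepoint of the highest Period gene levels, *Egr1* was at its lowest, 17.8 ± 5.39 CPM.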

How the data were processed

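RNA of laser-captured SCN pools was amplified before library preparation, and the 54 lane samples were combined by the authors into 18 columns. As the submitters' processing notes and the study's methods give it, the authors used GSNAP for alignment to mm10 and HTSeq 0.5.4p1 for counting on genes; the strand setting is not given in the sources used here. The deposited counts are whole reads per Ensembl gene without normalization (30031 genes). A second deposited table holds normalized signal (31077 genes), reads divided by 1 size factor per column (DESeq2), from which 100% of values gave whole reads (tolerance 1e-06). Of the shared genes with reads, 92.7% to 94.2% per column had the same reads in both tables at ZT2, ZT14, ZT18 and ZT22, but only 8.72% to 12.1% at ZT6 and ZT10, where the median log2 of recovered over counted reads was -0.13 to -0.11, so the normalized values there rest on other read numbers than the count table. The tables share 26118 genes, and 0 sample columns were left unused. GENCODE M21 gave symbols, positions and exon lengths, with a symbol for 97.2% of identifiers; promoter sequences are from RefSeq.

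The 18941 genes tested had 1 read or more in over 6 of the replicates. Counts were analysed with edgeR 4.0.16 in R 4.3.3 (TMM, quasi-likelihood F-test over the 18 replicates, Benjamini–Hochberg adjustment, threshold 0.05), also for pairs of timepoints and for departure from a 24 hr cosine. The cosinor regression used limma 3.58.1 on log2 CPM with a prior count of 2. JTK_CYCLE (24 hr, 6 lags, exact null distribution) and the permutation test were written in Python 3.11.15 with numpy 2.4.6 and scipy 1.17.1. Scripts were tested on simulated data. Replicates are separate pools, so p-values measure the spread between pools. Totals of 15412981 to 35820945 reads (median 25075231) set the counting precision. Same-letter libraries of different timepoints had deviations from the timepoint mean with r from -0.19 to 0.10 (45 pairs), against -0.21 to 0.21 for different letters (90 pairs), so letters were not used to pair samples.

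The genes named are the Period genes, the nearest tested protein-coding gene on each side, overlapping genes and the 5 genes of highest correlation with each. A set chosen from the regulator lists is named too. It includes list genes past the threshold at ZT14 against ZT18, a within-cluster step called for Period genes. Some genes were named after their values were seen. These are *Ppp1ca*, *Avp* and the list genes named only as higher or lower at ZT6 than at ZT18 or as the median of a list. Members and lists were chosen with earlier results of these data known. The alternatives were DESeq2 1.42.0, its size factors, upper-quartile normalization, other filters on low counts, the recovered reads, other prior counts and linear CPM, library totals alone, a replicate block, fits to only the timepoints compared, and each replicate left out in turn.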

Additional observations from a re-analysis of the deposited data

How the results depend on the processing

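The time test, JTK_CYCLE, the ratios between Period genes and the rise from ZT2 to ZT6 stayed past the threshold for all 3 genes under every alternative run. The fall of *Per2* from ZT14 to ZT18 lost its call with DESeq2's size factors (log2 -1.28), upper-quartile normalization (-1.27) and only the timepoints compared (-1.30), and that of *Per1* with only the timepoints compared (-1.43). Leaving out single replicates gave -1.66 to -1.30 for *Per1* and -1.42 to -1.25 for *Per2*. With upper-quartile normalization the departure of *Per2* from the cosine had q = 0.0703, and leaving out replicates gave 0.0141 to 0.0802 for *Per1*, 0.0206 to 0.0955 for *Per2* and 0.0320 to 0.376 for *Per3*. DESeq2 called *Per2* higher at ZT2 than at ZT22 (log2 1.31), and the fit to ZT10 and ZT14 alone called its fall between them (-0.69). The step of *Per2* from ZT6 to ZT10 ranged from -0.43 to 0.26 without single replicates, the positive value being without ZT6 replicate C. Without that replicate *Per3* at ZT6 against ZT18 had a log2 of 0.91 (q = 0.0933), from 1.34. Small differences between ZT18 and ZT2 changed sign, for *Per2* with DESeq2's size factors (-0.00930), upper-quartile normalization (-0.0915) and DESeq2 (-0.00903), and over the fits without single replicates they ranged from -0.00781 to 0.12 for *Per2* and from -0.14 to 0.54 for *Per3*. On linear CPM the acrophases came earlier, at 7.97, 8.97 and 8.46 hr for *Per1*, *Per2* and *Per3*. The cause of these changes was not tested.

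With the replicate letter as a block, 7847 genes changed with time in place of 8343, and the time test gave q = 9.33e-07 for *Per1*, 7.00e-07 for *Per2* and 2.75e-04 for *Per3*, the fall from ZT14 to ZT18 q = 0.0311 for *Per1* and 0.0398 for *Per2*; the letters do not pair the samples. Under the block the within-cluster calls of *Sik1* (q = 0.0623 and 0.0583) and *Crebbp* (0.0635) were lost. Sampling every 4 hr limits the phase, and *Per3* had the largest SD within a timepoint (0.49 on the log2 scale).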
